A study of Rattus norvegicus with 12 samples.

Results

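The lysosome and autophagy genes are a list of 37 rat genes grouped by role: cathepsins, lysosomal membrane proteins and hydrolases, subunits of the lysosomal proton pump, autophagy factors and the transcription factors that regulate them. They were chosen by name, and a member counted as measured if the deposited normalized table gave its name as a gene name. Of the 37 genes, 36 were found there and all 36 entered the test, among 14601 genes tested and 43360 in the count table. The cathepsin gene Ctsz has no row of that name, so its RNA was not analysed here. The 36 genes comprised 7 cathepsins, 5 lysosomal membrane and channel genes, 9 hydrolases and their cofactors, 4 proton pump genes, 3 regulators and 8 autophagy factors. The first 4 of these groups, 25 genes in all, are called the lysosomal members here.

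RNA was measured in NRK-49F cells, an established fibroblast line from normal rat kidney. The cells carried either the empty plasmid pcDNA3.1 or a plasmid for human HDAC1 with a Flag tag, and spent 24 hours in medium with 0.5% serum, either alone (vehicle) or with TGFB1 at 2 ng/ml. HDAC1 is an enzyme that takes acetyl groups off histones, and TGFB1 is the cytokine that drives fibroblasts towards matrix production. Each of the 4 combinations of plasmid and medium had 3 libraries, and all cells were transfected and kept in low serum. The labels do not say whether the 3 libraries of a group came from separate cultures, so the tests below measure the spread between libraries.

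Lysosomes are acidic compartments in which proteases, glycosidases and lipases break down material delivered by endocytosis or by autophagy. A proton pump of the membrane, the V-ATPase, acidifies them, and autophagy brings in cytoplasm enclosed by double membranes carrying LC3 and GABARAP proteins. The factors TFEB, TFE3 and MITF bind a DNA element built around CACGTG, known as CLEAR, near many lysosomal genes, and the kinase complex mTORC1 keeps them out of the nucleus when nutrients are plentiful. In fibroblasts the same compartment also degrades collagen that has been taken up.

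Library sizes lay between 18397093 and 36652084 counts. The rat gene Hdac1 read 204.9 to 212 CPM (library-scaled counts, defined with the processing below) with the empty vector and vehicle and 375 to 460 CPM with HDAC1 and vehicle, and 250.2 to 290.4 CPM against 416 to 501 CPM with TGFB1, so it was higher in every HDAC1 library than in every empty vector library of the same treatment. The gene named Hdac1l differed far more, with 0.530 to 15.1 CPM for the empty vector and vehicle and 852 to 1367 CPM for HDAC1 and vehicle. With TGFB1 Hdac1l read 8.09 to 11.2 CPM against 802 to 1257 CPM. Which part of either signal came from the plasmid was not tested. Of 9 fibroblast markers 7 were measured, with summed levels of 8782 to 15901 CPM, while Thy1 and Lum had no row of that name. Summed endothelial markers reached 6.13 CPM and the 1 kidney tubule marker measured reached 1.09 CPM. Transcripts of heart muscle were unevenly present: the sum over 21 such genes was 72.9 CPM for the first empty vector library with vehicle against 399 and 421 CPM for the other two, and 154 to 171 CPM in the HDAC1 libraries with TGFB1 against 447 to 567 CPM in the empty vector libraries with TGFB1. Brain transcripts were low in the same 4 libraries.

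With the empty vector, TGFB1 lowered most of the lysosomal genes. Of the 36 members, 27 fell and 1 rose, where a gene is said to fall or rise when its adjusted p from edgeR's quasi-likelihood test is under 0.05. Across all genes tested, 25% fell and 25.9% rose in this comparison. The median log2 fold change of the members was -0.44, against 0.01 for all genes. Among the 25 lysosomal members 23 fell (median -0.58), against 3 of 8 autophagy factors and 1 of 3 regulators. All members together took 1.35% to 1.41% of the counts of the vehicle libraries and 0.869% to 0.903% with TGFB1. In bulk RNA, a smaller number of cells with these transcripts and less of them per cell cannot be told apart.

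**Figure D1:**
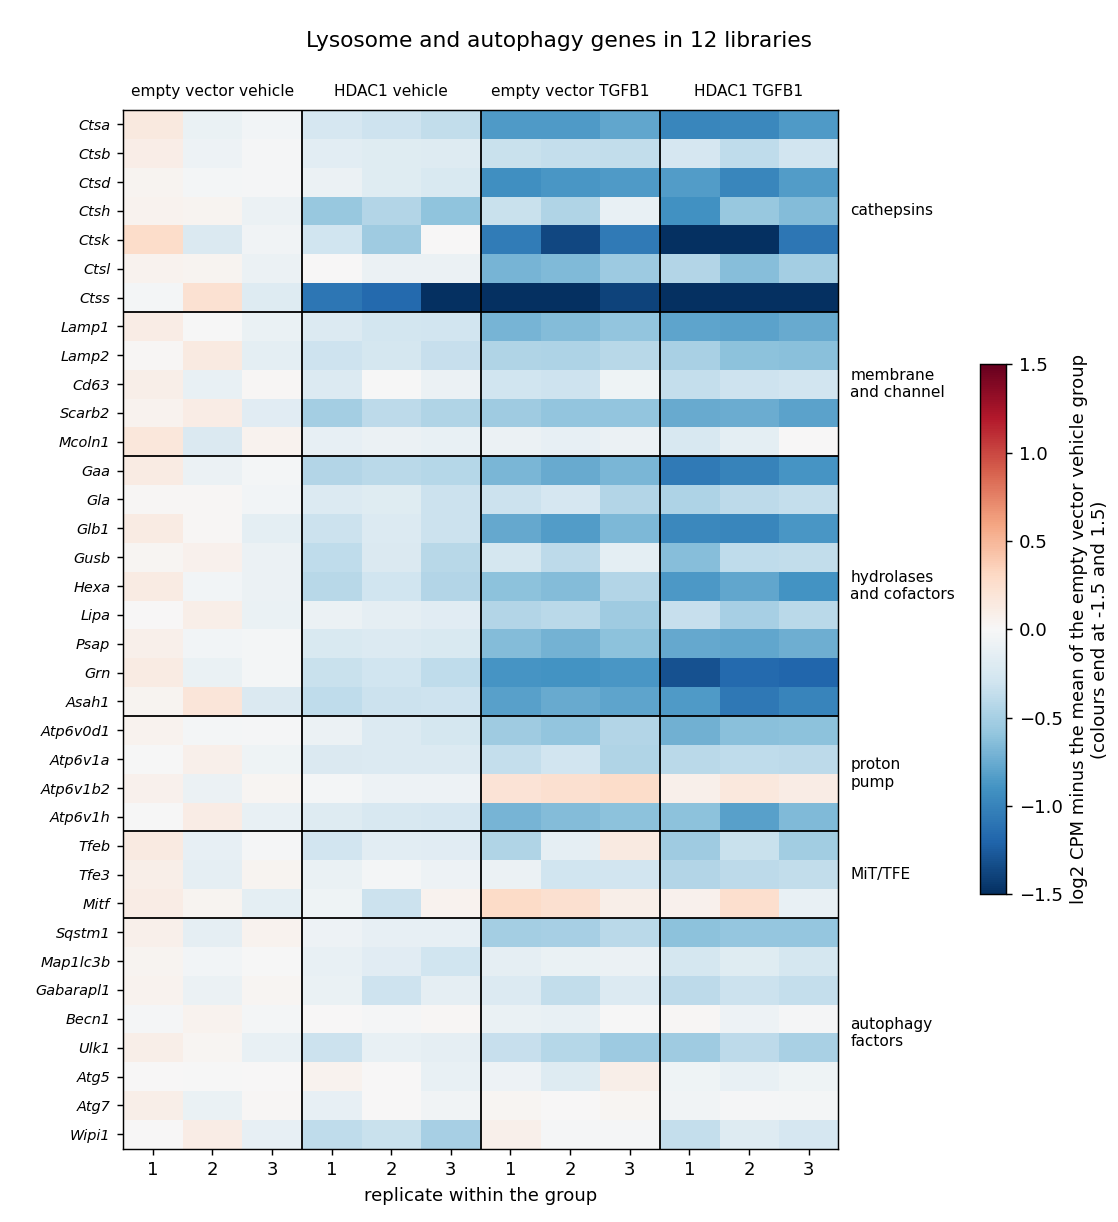
Colour map of the 36 lysosome and autophagy genes (rows, grouped by role) in the 12 libraries (columns, numbered by replicate within the 4 groups). Colour gives log2 CPM minus the mean of the empty vector vehicle group, with colours ending at -1.5 and 1.5. The cathepsin, hydrolase and most membrane rows darken to blue in the TGFB1 libraries, while Becn1, Atg5 and Atg7 stay pale. Atp6v1b2 turns only faintly red in those libraries (0.0779 to 0.279), as does Mitf with TGFB1 and the empty vector (0.0867 to 0.289).

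All 7 cathepsins measured fell with TGFB1 and the empty vector. Ctsd, the main aspartic protease of lysosomes, read 1927, 1832 and 1842 CPM in vehicle and 990.1, 1016 and 1038 CPM with TGFB1. The 2 groups stood far apart, with a log2 fold change of -0.88 (SE 0.064, edgeR adjusted p = 3.58e-10). Ctsa, a carboxypeptidase that also holds β-galactosidase and neuraminidase in a stable complex, read 361, 306 and 317 CPM in vehicle and 182, 181 and 189.9 CPM with TGFB1, a log2 fold change of -0.83 (SE 0.067). Every TGFB1 library was below every vehicle library.

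Ctss, a cysteine protease best known from antigen-presenting cells, read 7.02, 8.38 and 6.225 CPM in vehicle and 1.81, 1.54 and 2.68 CPM with TGFB1. Its log2 fold change of -1.84 (SE 0.21, edgeR adjusted p = 2.11e-07) was the largest in size among the members. Ctsk, the collagen-degrading protease of osteoclasts, was barely expressed, with 31, 18 and 30 counts in vehicle and 11, 9 and 10 counts with TGFB1. These are 1.37, 0.954 and 1.07 CPM against 0.497, 0.385 and 0.496 CPM, and the log2 fold change was -1.30 with a wide SE of 0.36. Among the cysteine proteases with higher counts, Ctsl fell by 0.64, Ctsb by 0.36 and the aminopeptidase Ctsh by 0.29 on the log2 scale. Ctsh read 82.1, 81.5 and 74.3 CPM in vehicle and 62.7, 57.9 and 73.5 CPM with TGFB1, which leaves little space between the groups, and its call ended without TGFB1 replicate 2.

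Macrophage markers were examined because Ctss is typical of those cells. Of 14 markers 4 were measured, Cd68, Csf1r, Cd14 and Mpeg1, and the other ten, among them Ptprc, Adgre1 and Itgam, had no row of that name in the table. The summed level of the 4 was 168 to 172 CPM with the empty vector and vehicle, 100.3 to 117 CPM with HDAC1 and vehicle, 191 to 224 CPM with the empty vector and TGFB1 and 152 to 167 CPM with HDAC1 and TGFB1. Most of that sum was Cd14, which rose with TGFB1 (log2 fold change 0.46), whereas Cd68 (9.31 ± 0.749 to 3.28 ± 0.758 CPM, SD, n = 3) and Mpeg1 (log2 fold change -1.94) fell alongside Ctss. Csf1r stood at 0.486 to 1.40 CPM over all libraries. The part of other cells in the Ctss values was not tested.

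Of the 5 membrane and channel genes 4 fell. Lamp1 and Lamp2 are the abundant glycoproteins that line the lysosomal membrane. Lamp1 read 461, 426 and 398 CPM in vehicle and 264, 274 and 283 CPM with TGFB1 (log2 fold change -0.65, SE 0.063), and Lamp2 fell by 0.45. Scarb2, a membrane glycoprotein that also acts as a sorting receptor to the lysosome, read 435, 453 and 374 CPM in vehicle and 290.1, 277 and 278 CPM with TGFB1, a log2 fold change of -0.58 (SE 0.068). For these 3 genes the groups did not overlap. Cd63, a tetraspanin of late endosomes, fell by 0.22 with libraries that overlapped between the groups. Its call ended without vehicle replicate 1 or 3, without TGFB1 replicate 1 or 2, and with the covariate for heart and brain transcripts. Mcoln1, the calcium channel of the lysosomal membrane, did not pass the test: it read 54.6, 41.9 and 50.3 CPM in vehicle and 45.7, 44.8 and 45.6 CPM with TGFB1 (log2 fold change -0.11, SE 0.084). Without vehicle replicate 2, the lowest of its group, the value was -0.20 and passed (edgeR adjusted p = 0.0336).

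All 9 hydrolases and cofactors fell. Grn encodes progranulin, a secreted protein that is also cut into granulins inside lysosomes. It read 2392, 2045 and 2144 CPM in vehicle and 1185, 1175 and 1193 CPM with TGFB1, a log2 fold change of -0.89 (SE 0.067, edgeR adjusted p = 6.72e-10). The TGFB1 libraries were nearly equal to each other and stood at 54% of the vehicle mean. Asah1, acid ceramidase, read 129, 143 and 108 CPM in vehicle and 71.6, 74.4 and 72.8 CPM with TGFB1, a log2 fold change of -0.80 (SE 0.082). Glb1, the lysosomal β-galactosidase, read 146, 135 and 121 CPM in vehicle and 78.6, 74.6 and 83.8 CPM with TGFB1, a log2 fold change of -0.76 (SE 0.072). Gaa, which breaks down glycogen in lysosomes, read 492, 423 and 442 CPM in vehicle and 282, 269 and 281 CPM with TGFB1, a log2 fold change of -0.71 (SE 0.066). In all 4 genes every TGFB1 library was below every vehicle library.

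The remaining hydrolase genes moved by smaller amounts. Psap, the precursor of the saposins that help lipid hydrolases reach their substrates, fell by 0.66 and Hexa, the alpha subunit of β-hexosaminidase, by 0.57. Lipa, lysosomal acid lipase, fell by 0.46, Gla, α-galactosidase A, by 0.34 and Gusb, β-glucuronidase, by 0.27. Hexa read 247, 219 and 213 CPM in vehicle and 147, 143 and 167 CPM with TGFB1. Gusb read 65.8, 67.5 and 60.7 CPM in vehicle and 53.7, 49.3 and 58.4 CPM with TGFB1, so that its highest TGFB1 library came close to its lowest vehicle library, and its call too ended without TGFB1 replicate 2.

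The proton pump split. Atp6v1h, the regulatory H subunit, fell by 0.66, Atp6v0d1, a subunit of the membrane sector, by 0.52 and Atp6v1a, the catalytic A subunit, by 0.36. Atp6v1b2, the B subunit that pairs with it, was the 1 member that rose: it read 120.1, 108 and 117 CPM in vehicle and 133, 136 and 139.6 CPM with TGFB1, 0.24 higher on the log2 scale (SE 0.059, edgeR adjusted p = 0.00173). All 3 TGFB1 libraries were above all 3 vehicle libraries.

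Of the 3 regulators 1 fell. Tfeb read 19.7, 16.4 and 17.7 CPM in vehicle and 13.1, 16.3 and 19.6 CPM with TGFB1, and its log2 fold change of -0.14 (SE 0.12) did not pass the test. Without TGFB1 replicate 3, its highest, the value was -0.31 and passed (edgeR adjusted p = 0.0251). Mitf read 16.7, 15.8 and 13.9 CPM in vehicle and 18.8, 18.2 and 16.4 CPM with TGFB1 (log2 fold change 0.21, SE 0.11), also without passing. Tfe3 read 64.2, 55.2 and 62.2 CPM in vehicle and 57.0, 49.1 and 49.6 CPM with TGFB1, and fell by 0.22 (edgeR adjusted p = 0.0153). The Tfe3 groups overlapped, and the call ended when replicate 1 or 3 of the vehicle group or replicate 2 of the TGFB1 group was left out (edgeR adjusted p of 0.0529 to 0.0652), and with the covariate for heart and brain transcripts (0.109). RNA levels do not show where these factors sit in the cell, which is how mTORC1 is known to control them.

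Among the autophagy factors, 3 of 8 fell. Sqstm1 encodes p62, the receptor that ties ubiquitin-tagged cargo to LC3. It read 365, 315 and 357 CPM in vehicle and 242, 245 and 261 CPM with TGFB1, a log2 fold change of -0.47 (SE 0.063). Ulk1, the kinase that starts autophagy, fell by 0.44 and Gabarapl1, a ubiquitin-like protein of the autophagosome membrane, by 0.26. The other five did not pass the test. Becn1, a subunit of the lipid kinase complex that marks the site of autophagosome formation, read 170.5, 179 and 169.9 CPM in vehicle and 162, 161 and 172 CPM with TGFB1. Log2 fold changes were -0.07 for Becn1, -0.06 for Atg5 and 0.02 for Atg7, which act in LC3 conjugation, with SEs of 0.057 to 0.074. Map1lc3b, the gene of LC3B, stood at -0.11 and Wipi1, which binds the lipid made by the Becn1 complex, at 0.01.

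TGFB1 gave nearly the same picture in cells with the HDAC1 plasmid. There 23 members fell and 1 rose, against 24.2% and 24.9% of all genes tested, with a median log2 fold change of -0.28 (all genes -0.02) and of -0.47 for the lysosomal members. This comparison shares no library with the one in empty vector cells. Across the 36 genes the 2 sets of log2 fold changes had a Pearson r of 0.97 and a Spearman rho of 0.96, against 0.73 and 0.70 across all 14601 genes. These are correlations across genes of 1 fit, given as a description. All 23 members that fell with HDAC1 also fell with the empty vector, and in 29 of 36 the change was smaller in size with HDAC1. Over all genes, 2741 of the 3532 that fell with HDAC1 also fell with the empty vector. The change was smaller in size with HDAC1 in 7988 of 14601 genes. Ctsb, Ctsh, Gla and Gusb passed the test with the empty vector only, and of these 4 the difference between the 2 effects was called by DESeq2 for Ctsb and by edgeR for none. With HDAC1, leaving out a single library brought in Ctsb (without TGFB1 replicate 1), Ctsh (without TGFB1 replicate 2) and Gla (without replicate 3 of either group). It ended the calls of Cd63 (without vehicle replicate 2 or 3), Gabarapl1 (without vehicle replicate 1 or 3 or TGFB1 replicate 1) and Atp6v1b2 (without vehicle replicate 2 or TGFB1 replicate 2 or 3).

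**Figure D2:**
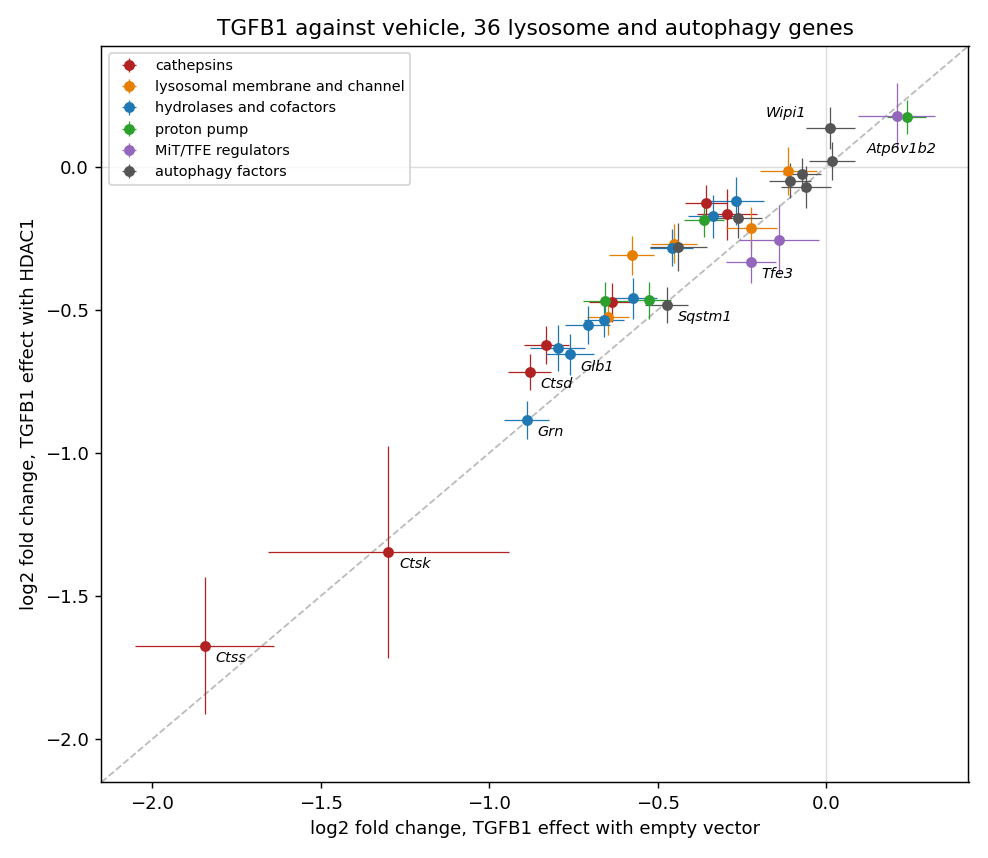
Log2 fold change of each member under TGFB1 with the empty vector (horizontal axis) and with HDAC1 (vertical axis), coloured by role, with bars of 1 standard error and a dashed line of equal change. Points follow the line from Ctss at the lower left to Atp6v1b2 at the upper right, and 29 of 36 changes are smaller in size with HDAC1 (7988 of 14601 over all genes).

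Grn changed by like amounts with either plasmid. With HDAC1 it read 1734, 1785 and 1687 CPM in vehicle and 885, 974.7 and 959.7 CPM with TGFB1, a log2 fold change of -0.88 (SE 0.067) beside the -0.89 with the empty vector. Ctsd read 1761, 1640 and 1596 CPM and then 1043, 950.5 and 1046 CPM, a change of -0.72 (SE 0.064). All 6 TGFB1 libraries of Ctsd, with either plasmid, lay between 950.5 and 1046 CPM.

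Ctss and Ctsk had the largest called changes in size in cells with HDAC1, both at low counts. Ctss went from 3.33, 3.15 and 2.42 CPM in vehicle to 0.828, 0.973 and 0.971 CPM with TGFB1 (log2 fold change -1.67). Ctsk went from 34, 19 and 29 counts to 5, 8 and 11 counts (-1.35). Other members repeated their direction as well. With HDAC1, Ctsa went from 275, 263 and 254 CPM to 166, 167 and 181 CPM (log2 fold change -0.62), and Asah1 from 97.1, 100.5 and 101.8 CPM to 69.96, 60.0 and 63.2 CPM (-0.63). Glb1 went from 107, 115 and 107 CPM to 68.3, 67.6 and 72.9 CPM (-0.66), and Gaa from 333, 340 and 337 CPM to 217, 226 and 246 CPM (-0.55). In each of these 4 genes the 2 groups were apart. Tfe3 fell by 0.33, with all TGFB1 libraries (44.5, 46.0 and 46.9 CPM) below all vehicle libraries (56.6, 59.3 and 57.2 CPM). Tfeb, at 14.7, 16.04 and 15.9 CPM against 12.3, 14.1 and 12.5 CPM, stood at -0.25 on the log2 scale (adjusted p by edgeR = 0.0846, and 0.0421 without TGFB1 replicate 2). Mitf, at 14.8, 12.3 and 15.97 CPM against 16.2, 18.3 and 14.2 CPM, overlapped between groups.

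CLEAR-type sequences were searched in the promoters because 3 members encode the factors that bind them. RefSeq promoters of the rat assembly GRCr8, from 250 bases before to 50 after the gene start, were found for 30 of the 37 genes. CACGTG was present in 8 of these 30 promoters (26.7%), against 6.42% of all 33469 promoters in the table and 9.04% of the 11452 promoters of tested genes. TCACGTGA, a longer form that contains it, was present in 4 of 30 (13.3%), against 0.777% and 1.64%. Both words read the same on the 2 strands. The 4 promoters with the longer form are shown 5′ to 3′ on the strand of the gene, with each CACGTG or TCACGTGA in capitals. They come from chr1:206968772-206969071 (minus strand) for Ctsd, chr16:83075014-83075313 (minus strand) for Lamp1, chr12:6358008-6358307 (plus strand) for Mcoln1 and chr19:50357199-50357498 (minus strand) for Atp6v0d1.
Ctsd: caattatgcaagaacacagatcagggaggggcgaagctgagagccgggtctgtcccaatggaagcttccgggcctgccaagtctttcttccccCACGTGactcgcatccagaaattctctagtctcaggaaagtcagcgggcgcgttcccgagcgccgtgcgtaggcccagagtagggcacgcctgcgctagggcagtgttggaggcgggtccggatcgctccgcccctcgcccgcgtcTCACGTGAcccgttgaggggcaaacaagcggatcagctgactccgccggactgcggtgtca
Lamp1: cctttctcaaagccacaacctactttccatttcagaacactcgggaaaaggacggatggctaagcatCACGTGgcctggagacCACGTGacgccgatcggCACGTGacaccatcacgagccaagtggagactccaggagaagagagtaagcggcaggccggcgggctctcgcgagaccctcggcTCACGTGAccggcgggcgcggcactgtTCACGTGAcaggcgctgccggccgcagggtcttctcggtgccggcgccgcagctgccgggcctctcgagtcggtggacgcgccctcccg
Mcoln1: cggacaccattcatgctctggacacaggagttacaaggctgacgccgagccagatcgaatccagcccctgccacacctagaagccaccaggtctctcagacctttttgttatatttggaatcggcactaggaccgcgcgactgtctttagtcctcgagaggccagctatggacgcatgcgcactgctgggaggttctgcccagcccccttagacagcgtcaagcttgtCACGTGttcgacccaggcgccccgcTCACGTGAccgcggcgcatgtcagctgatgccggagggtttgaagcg
Atp6v0d1: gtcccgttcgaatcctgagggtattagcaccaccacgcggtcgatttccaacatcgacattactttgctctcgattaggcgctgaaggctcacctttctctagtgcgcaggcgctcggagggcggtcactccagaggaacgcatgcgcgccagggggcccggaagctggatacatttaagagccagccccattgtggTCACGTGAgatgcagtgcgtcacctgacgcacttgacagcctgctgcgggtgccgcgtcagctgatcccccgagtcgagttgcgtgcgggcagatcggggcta

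Lamp1 carried 5 copies of CACGTG, of which the 2 within the longer form began 65 and 38 bases before the start. The CACGTG of the longer form began 10 bases before the start in Ctsd and 52 before it in Atp6v0d1, while in Mcoln1 it began at base 5 after the start. Cd63, Gaa, Glb1 and Atg5 held 1 copy of CACGTG each. The 8 genes with CACGTG did not all change: Ctsd, Lamp1, Cd63, Gaa, Glb1 and Atp6v0d1 fell with TGFB1 and the empty vector, and Mcoln1 and Atg5 did not pass the test. Their median log2 fold change was -0.59. Of the other members with a promoter in the table, 21 had their RNA measured, and 16 of these fell too, with a median of -0.36. Grn, Ctsa and Ctss, which are among the most changed members, had no CACGTG in the window. A word in the sequence is a description of these letters, not a binding site.

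**Figure D3:**
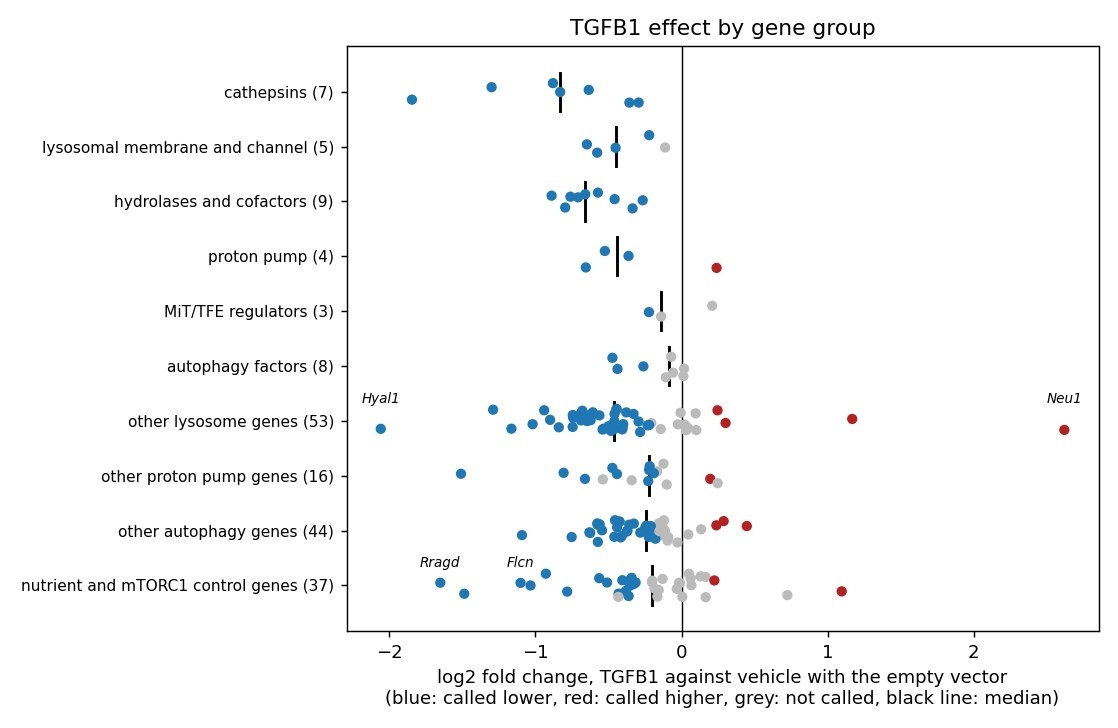
Log2 fold change under TGFB1 with the empty vector (horizontal axis) for the members by role and for 4 wider gene lists (number of genes in brackets). Points are genes, blue where lower and red where higher at an adjusted p under 0.05, and grey otherwise; black lines are medians. Cathepsins and hydrolases are all blue, and Neu1 lies alone at the right with a log2 fold change of 2.62.

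A wider list of 60 other lysosome genes, 53 of them tested, moved the same way. With TGFB1 and the empty vector 40 fell and 4 rose (25% and 25.9% of all genes), and with HDAC1 37 fell and 5 rose (24.2% and 24.9% of all genes). The same shares apply to the 3 lists that follow. Gpnmb, a membrane glycoprotein of lysosomes and melanosomes, went from 896 ± 51.1 CPM (SD, n = 3) to 399.6 ± 12.6 CPM, a log2 fold change of -1.16. Tpp1, a tripeptidyl peptidase, fell by 1.02 and Lgmn, an asparagine-specific protease, by 0.94. Hyal1, a hyaluronidase with low counts, fell by 2.06 with the empty vector and by 1.72 with HDAC1. Neu1, the neuraminidase that works in the complex with Ctsa and Glb1, went the other way. It read 65.7, 62.1 and 66.1 CPM in vehicle and 388, 383 and 422 CPM with TGFB1, or 2.62 higher on the log2 scale (edgeR adjusted p = 6.55e-17), while its 2 partners fell.

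Of 19 other proton pump genes 16 were tested: 9 fell and 1 rose with the empty vector, and 8 fell and 1 rose with HDAC1. Atp6v0e2, a small subunit of the membrane sector, fell by 1.51 and by 1.47. Atp6ap2, an accessory subunit also known as the prorenin receptor, fell by 0.66 and 0.54, Atp6v1d by 0.44 and 0.36, and Tcirg1 by 0.47 and 0.32.

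Of 48 other autophagy genes 44 were tested. With TGFB1, 29 fell and 3 rose with the empty vector, and 24 fell and 2 rose with HDAC1. Pink1, a kinase that marks damaged mitochondria for removal, fell by 1.09 and 0.98. Tecpr1 fell by 0.75 and 0.53, and the cargo receptors Nbr1 and Optn by 0.63 and 0.57 with the empty vector. Bnip3, a mitochondrial receptor for autophagy, fell by 0.46 and 0.58.

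Genes of nutrient sensing and mTORC1 control numbered 38, with 37 tested. With TGFB1, 17 fell and 2 rose with the empty vector (25% and 25.9% of all genes), and 19 fell and 5 rose with HDAC1 (24.2% and 24.9%). Rragd, a GTPase that brings mTORC1 to the lysosome, read 14.9, 14.6 and 12.2 CPM in vehicle and 4.52, 4.49 and 4.22 CPM with TGFB1 (log2 fold change -1.65). Flcn, folliculin, the partner protein that acts on such GTPases, went from 69.95 ± 5.63 CPM to 32.6 ± 1.94 CPM (-1.10). Deptor, an inhibitor of mTOR, fell by 1.49, and Sesn3, an inhibitor upstream of mTORC1, by 1.03. Foxo1, a transcription factor held back by insulin signalling, rose by 1.10 with the empty vector and by 1.66 with HDAC1.

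The HDAC1 plasmid in vehicle also lowered lysosomal genes, by smaller amounts. Of the 36 members 18 fell and 0 rose, against 7.32% and 6.64% of all genes tested, and the median log2 fold change was -0.21 (all genes -0.01). DESeq2 also gave 0 that rose. Of the 18 that did not pass, 6 had an unadjusted p under 0.05, and 35 of the 36 fold changes were negative (51.6% over all genes). Counting those that passed, 24 of 36 members had such an unadjusted p, against 3962 of 14601 genes tested. The falls were 16 of 25 lysosomal members, 0 of 3 regulators and 2 of 8 autophagy factors. The controls here are the same libraries as in the TGFB1 comparison with the empty vector.

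Ctss showed the largest change under HDAC1 among the members. It read 3.33, 3.15 and 2.42 CPM with HDAC1, below the 6.225 to 8.38 CPM of the empty vector, a log2 fold change of -1.27 (SE 0.19, edgeR adjusted p = 0.000149). Ctsh read 53.4, 58.3 and 52.3 CPM, all below the lowest control at 74.3 CPM, a change of -0.54 (SE 0.089). Ctsa fell by 0.31. Ctsb, Ctsd, Ctsk and Ctsl did not pass the test, with log2 fold changes of -0.18, -0.16, -0.30 and -0.06. Of these, Ctsb and Ctsd had all HDAC1 libraries below all controls, and the DESeq2 test called both (adjusted p = 0.00486 and 0.0143). Summed macrophage markers were lower as well, 100.3 to 117 CPM against 168 to 172 CPM, and their part in the Ctss difference was not tested.

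Scarb2 read 294, 318 and 305 CPM with HDAC1, against 374 to 453 CPM in the controls. Its log2 fold change of -0.46 (SE 0.067) had the smallest adjusted p of the members in this comparison, 0.000113 by edgeR. Lamp2 fell by 0.31 and Lamp1 by 0.26, while Cd63 (-0.10) and Mcoln1 (-0.12) did not pass.

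Of the 9 hydrolases and cofactors 8 fell. Gaa read 333, 340 and 337 CPM with HDAC1 against 423 to 492 CPM (log2 fold change -0.43, SE 0.065), and Hexa 169, 183 and 166 CPM against 213 to 247 CPM (-0.39, SE 0.070). Both genes had no overlap between groups. Asah1, at 97.1, 100.5 and 101.8 CPM, fell by 0.34 (SE 0.080) and Gusb, at 49.7, 55.4 and 48.4 CPM, also by 0.34 (SE 0.082). Grn read 1734, 1785 and 1687 CPM against 2045 to 2392 CPM, a change of -0.34 (SE 0.067). Glb1 fell by 0.29, Gla by 0.23 and Psap by 0.23, and Lipa stood at -0.13 without passing.

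Pump subunits Atp6v1h and Atp6v1a fell by 0.23 and 0.21. Atp6v0d1 (-0.18, called by DESeq2) and Atp6v1b2 (-0.06) did not pass. Wipi1, at 0.01 under TGFB1 on the log2 scale, fell with HDAC1: it read 45.4, 47.0 and 41.8 CPM against 59.6, 63.9 and 54.5 CPM in the controls (log2 fold change -0.40, SE 0.073, edgeR adjusted p = 0.000778). Map1lc3b fell by 0.19. Sqstm1 (-0.11), Gabarapl1 (-0.18), Ulk1 (-0.19), Becn1 (0.00), Atg5 (-0.01) and Atg7 (-0.06) did not pass. Neither did Tfeb (-0.21, SE 0.12), Tfe3 (-0.07, SE 0.073) or Mitf (-0.10, SE 0.11).

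The count of 18 went down to 11 without replicate 1 of the empty vector, the library with few heart and brain transcripts, and also to 11 without replicate 3 of HDAC1. Over all genes, 559 and 572 were called lower in those 2 fits, in place of 1069. Ctsa, Ctsh, Ctss, Lamp2, Scarb2, Gaa, Hexa, Grn and Wipi1 were called whichever single library was left out. Gla, Atp6v1a, Atp6v1h and Map1lc3b each lost the call in 5 of the 6 fits with 1 library left out. Glb1, Gusb and Psap lost it in 3, and Lamp1 and Asah1 in 1. With the covariate for heart and brain transcripts, Gla, Psap, Atp6v1a, Atp6v1h and Map1lc3b lost the call. Over all genes, 755 were called lower in that fit, in place of 1069.

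**Figure D4:**
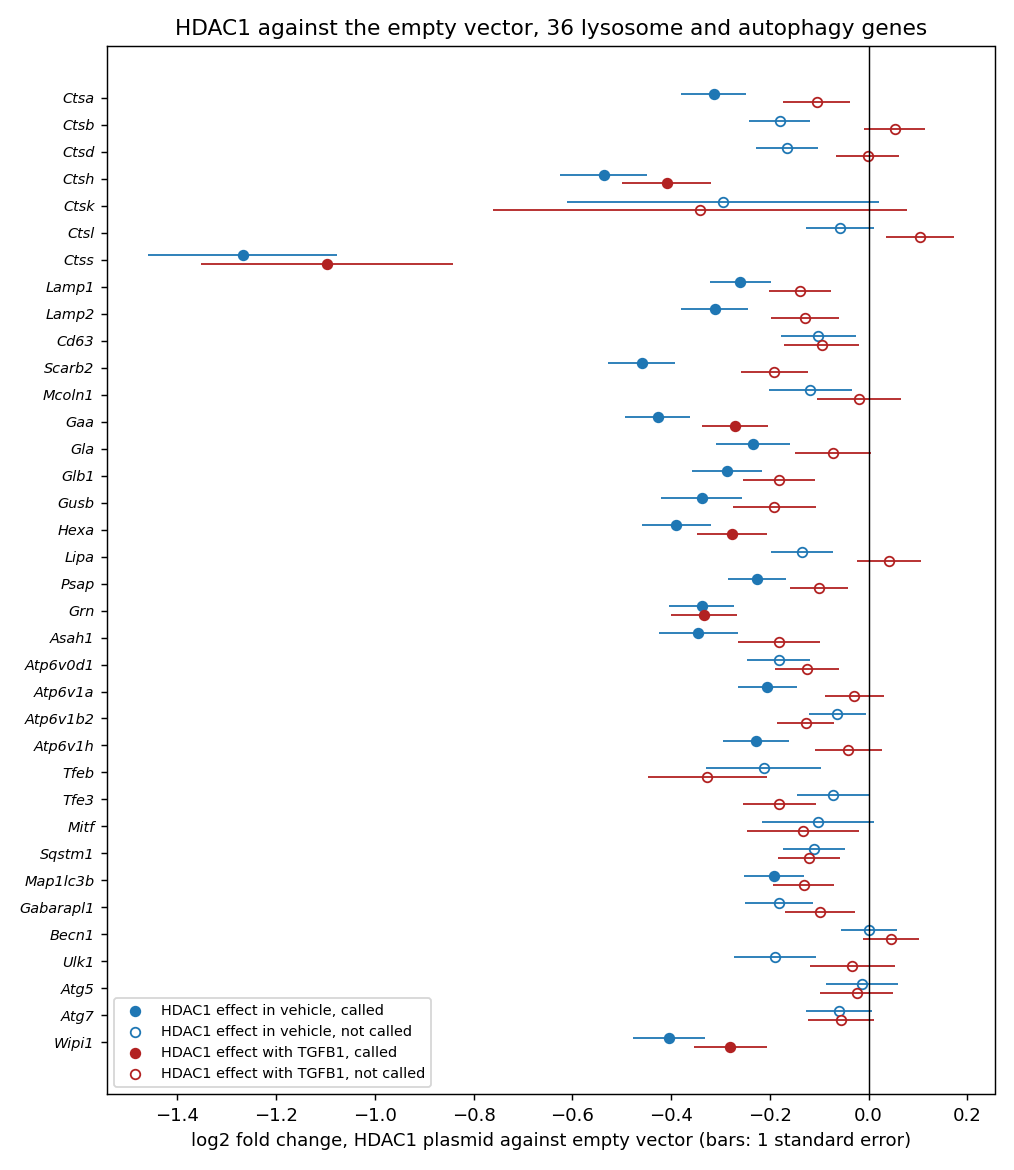
Log2 fold change of HDAC1 against the empty vector (horizontal axis) for each member (rows), in vehicle (blue) and with TGFB1 (red), with bars of 1 standard error; filled points have an adjusted p under 0.05. Nearly all points lie left of 0, Ctss farthest, and 18 blue and 6 red points are filled.

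Among the wider lists in vehicle, 25 of 53 other lysosome genes fell with HDAC1 and 1 rose, and 11 of 44 other autophagy genes fell and 1 rose. Lgmn and Gpnmb both fell by 0.52 and Neu1 by 0.44. Pink1 fell by 0.64. Neu1 thus fell with HDAC1 together with Ctsa and Glb1, whereas with TGFB1 it rose. Of 16 other pump genes 1 fell, Tcirg1 by 0.33, and of 37 nutrient and mTORC1 genes 3 fell, Rragd by 0.40, Foxo1 by 0.43 and Flcn by 0.26. These last 2 counts are near the 7.32% of all genes that fell. Prkaa2, a catalytic subunit of AMP-activated kinase, rose by 0.58 from 2.84 ± 0.443 CPM to 4.26 ± 0.528 CPM.

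In the presence of TGFB1 the HDAC1 plasmid lowered 6 members and raised 0 (also 0 by DESeq2), against 4.36% and 2.17% of all genes tested. The median log2 fold change was -0.13 (all genes 0.00), and 32 of 36 were negative (50.3% over all genes). The 6 were Ctss, Ctsh, Grn, Wipi1, Hexa and Gaa, all of which had also fallen in vehicle. Over all genes, 288 of the 637 lowered by HDAC1 with TGFB1 had also fallen in vehicle. This comparison shares no library with the one in vehicle, and across the 36 genes the 2 sets of fold changes had a Pearson r of 0.90 and a Spearman rho of 0.73, against 0.12 and 0.31 across all genes. The Pearson r leans on Ctss, a gene with low counts, which at -1.27 and -1.10 lay far from the other members. Next in size was Ctsh, at -0.54 and -0.41.

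Ctss was reduced to 0.828, 0.973 and 0.971 CPM, or 15, 25 and 22 counts, below the 1.54 to 2.68 CPM of the empty vector with TGFB1, a log2 difference of -1.10 (SE 0.26, edgeR adjusted p = 0.0143). Grn read 885, 974.7 and 959.7 CPM against 1185, 1175 and 1193 CPM, a change of -0.33 (SE 0.067). Gaa read 217, 226 and 246 CPM against 282, 269 and 281 CPM (-0.27, SE 0.066). These 3 genes had no overlap between the groups.

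Ctsh read 42.3, 53.2 and 50.2 CPM against 62.7, 57.9 and 73.5 CPM (-0.41, SE 0.091), and Hexa 124, 131 and 122 CPM against 147, 143 and 167 CPM (-0.28, SE 0.071). Wipi1 read 46.1, 51.6 and 49.7 CPM against 62.3, 58.5 and 58.5 CPM (-0.28, SE 0.074), again with all HDAC1 libraries lowest. Tfeb stood at -0.33 (SE 0.12, edgeR adjusted p = 0.109, and 0.033 without empty vector replicate 1), and Tfe3 and Mitf at -0.18 and -0.13. Scarb2 and Lamp1 had all HDAC1 libraries below all controls but did not pass, with log2 fold changes of -0.19 and -0.14. Of the wider lists, 8 of 53 other lysosome genes fell, among them Naglu, Arsa and Aga by 0.36, 0.35 and 0.31, against 4.36% of all genes. The 2 of 44 other autophagy genes that fell, Pink1 by 0.52 and Optn by 0.21, are near that share. Of 16 other pump genes and of 37 nutrient and mTORC1 genes, 0 fell and 0 rose.

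The HDAC1 libraries with TGFB1 were also those with less heart and brain RNA. Their heart transcripts summed to 154 to 171 CPM, against 447 to 567 CPM in their controls. These sums did not overlap, so in this comparison such transcripts and the plasmid cannot be fully told apart. With the level of those transcripts as a covariate, Grn alone of the 6 was called (log2 fold change -0.45, edgeR adjusted p = 0.0306). The log2 fold changes of the other 5 were -0.42 for Ctsh, -1.09 for Ctss, -0.38 for Gaa, -0.37 for Hexa and -0.30 for Wipi1 in that fit, and over all genes 56 were called lower in place of 637. The count was also 1, again Grn, without replicate 1 of this group, and 3 without its replicate 3. Over all genes, 170 and 211 were called lower in those 2 fits, in place of 637.

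**Figure D5:**
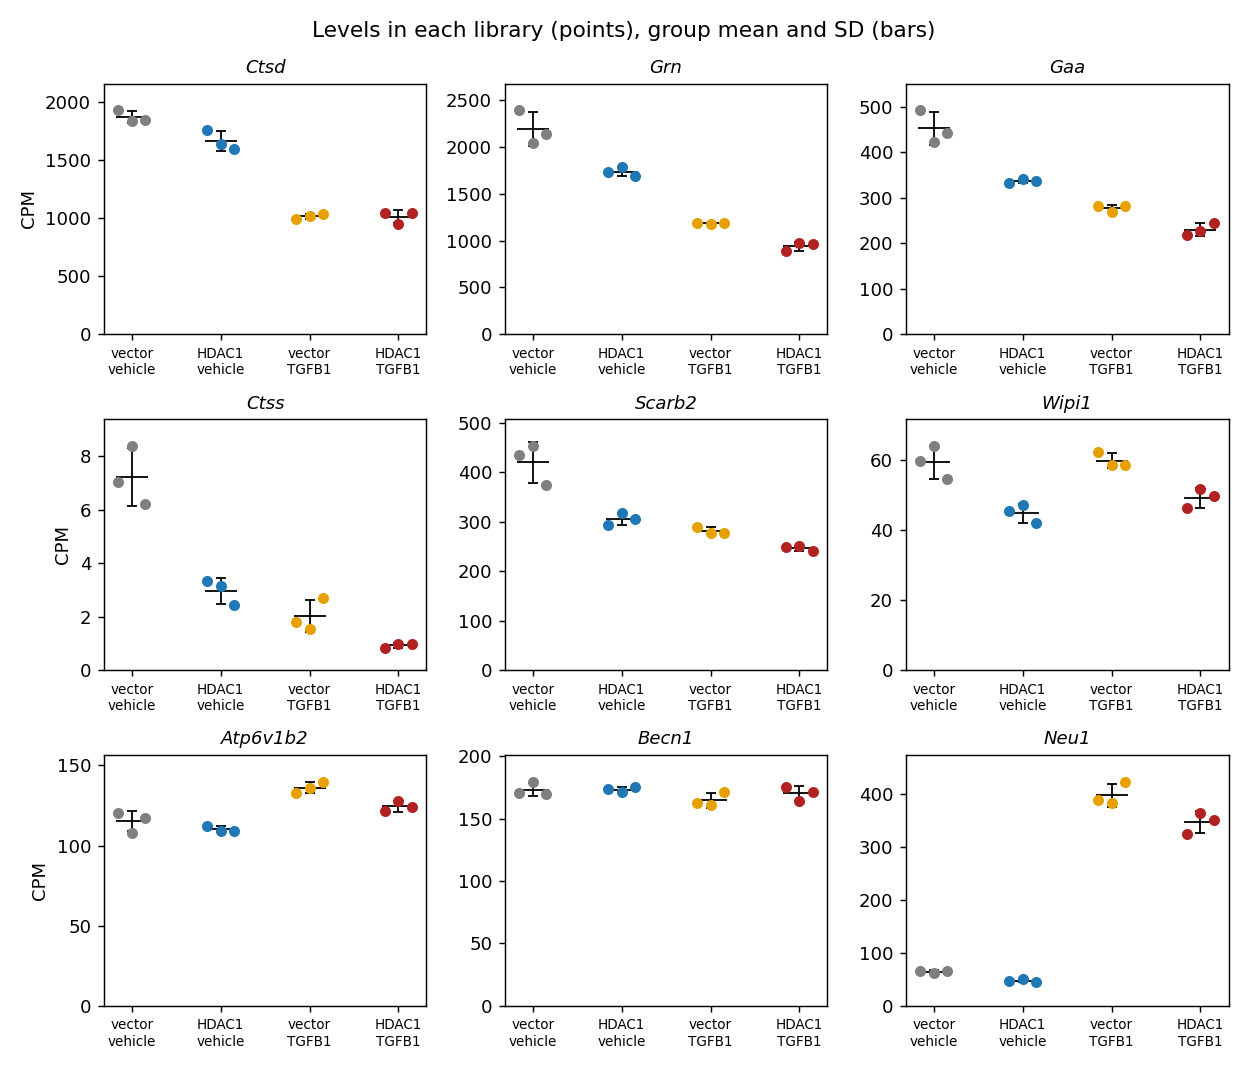
CPM (vertical axes, from 0) of 9 genes in the 4 groups (horizontal axes): coloured points are the 3 libraries of a group, and black bars the mean and SD. Grn and Gaa step down through all 4 groups without overlap, Wipi1 is lower in each HDAC1 group than in the matching empty vector group, Becn1 lies between 161 and 179 CPM in all 12 libraries, and Neu1 is 382.6 CPM or more with TGFB1 and the empty vector against 66.1 CPM or less without TGFB1.

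The median lysosomal member was lowest with both treatments together. Against TGFB1 alone only 6 of 36 members passed the test, where 4.36% of all genes tested fell. Grn and Gaa, given here as examples, are among those 6, and Grn alone kept its call with the covariate for heart and brain transcripts. Relative to the empty vector with vehicle, the median lysosomal member stood at -0.28 to -0.22 on the log2 scale in the HDAC1 libraries, at -0.64 to -0.54 with TGFB1 alone and at -0.75 to -0.66 with both. Grn was at 79.1% of the control mean with HDAC1, 54% with TGFB1 and 42.8% with both, and Gaa at 74.4%, 61.2% and 50.7%. In both genes none of the 4 groups overlapped another. Ctsd differed from this, with 89.2%, 54.3% and 54.3%, and Wipi1 also, with 75.4%, 100.7% and 82.9%.

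Whether the HDAC1 effect itself differed between treatments was tested as the interaction. By edgeR's quasi-likelihood test 0 of 36 members were called, against 0.479% of all genes tested, and 4 had an unadjusted p under 0.05: Scarb2, Ctsb, Ctsa and Atp6v1a. Over all genes 1887 of 14601 had such an unadjusted p, so the members' 4 are no excess. The DESeq2 test called 1, Ctsb (log2 difference 0.25, adjusted p = 0.0435), and gave 9 at an unadjusted p under 0.05. The members' differences, HDAC1 effect with TGFB1 minus that in vehicle, ran from -0.11 to 0.27 with SEs of 0.080 to 0.50. Their median was 0.12 (all genes 0.01), and 29 of 36 were positive (51.3% over all genes). The median was 0.0041 with the covariate for heart and brain transcripts and 0.085 to 0.17 with 1 library left out. The 18 members lowered by HDAC1 in vehicle and the 6 lowered with TGFB1 are therefore not shown to differ. Of the wider lists, edgeR called 0 genes in the interaction, with 12 other lysosome, 0 other pump, 8 other autophagy and 3 nutrient and mTORC1 genes at an unadjusted p under 0.05, beside the 1887 of 14601 over all genes.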

How the data were processed

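The authors deposited raw counts per gene and a normalized signal table, in which each column is the count column divided by 1 constant per library. Per the submitters' processing notes, Trim Galore 0.6.7, featureCounts of Subread 2.0.1 and DESeq2 1.44 were used. The notes list mm10, although the gene identifiers are those of rat; the aligner, the rat build and the treatment of reads with several matches are not given in the sources used here. Groups follow the sample titles. The tests used the deposited counts, with the gene names of the normalized table, which keeps genes with at least 100 counts in total; 1909 tested genes had no name there.

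Genes were filtered with filterByExpr of edgeR 4.0.16 (R 4.3.3) and scaled by TMM. A quasi-likelihood model with 1 mean per group was fitted to all 12 libraries (8 residual degrees of freedom, common biological variation 7.61%). Tests were two-sided, with Benjamini-Hochberg adjustment over the 14601 genes and a threshold of 0.05. The standard error is the size of the log2 fold change divided by the square root of F. Levels are CPM, counts scaled to library size after TMM and expressed as edgeR's cpm does, and gene lengths were not used, so levels of different genes are not compared. An exact permutation test of 3 against 3 libraries cannot go below 0.1. Overlap of libraries between groups was examined for the members only. Statements of no overlap describe single genes and have no share over all genes beside them. The edgeR steps were run on simulated counts for HDAC1 in vehicle only, with the same spread for every gene and no uneven heart or brain RNA. No change as small as those of most members was simulated, and the outcome is not reported here. The alternatives changed the scaling (DESeq2 size factors), the test (DESeq2 1.42.0), the filter (none, or a mean of 1 CPM or more), the libraries fitted (only the 2 groups compared, or each library left out) and the model (a replicate block, or a covariate for heart and brain transcripts).

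The members and lists were chosen with earlier results of these data known. Values are given per library for the 8 largest called changes per comparison and for Tfeb, Tfe3 and Mitf, and beside these for members that illustrate their group; from each wider list, genes among the 4 with the smallest adjusted p per comparison were named. Promoter sequences are those of RefSeq for GRCr8. 1 gene of the wider lists is not reported here.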

Additional observations from a re-analysis of the deposited data

How the results depend on the processing

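Across all alternatives, 0 of the called members changed direction. Of 2515 values of genes under alternatives, 85 lost a call and 16 gained one. The other 2414 stayed as they were, called or not called. Among these 2414, 84 changed sign where neither fit had called the gene. With 1 library left out, the members called numbered 11 to 16 for HDAC1 in vehicle, 1 to 6 for HDAC1 with TGFB1, 24 to 29 for TGFB1 with the empty vector, 22 to 25 for TGFB1 with HDAC1 and 0 to 0 for the interaction. The other settings gave 13 to 21, 1 to 6, 26 to 28, 22 to 25 and 0 to 1. Calls over all genes moved as well. With 1 library left out, 522 to 1080 genes were called lower for HDAC1 in vehicle, beside 1069 with all libraries. For HDAC1 with TGFB1 170 to 645 were called lower, beside 637. For TGFB1 the range was 3255 to 3749 with the empty vector, beside 3649, and 3123 to 3367 with HDAC1, beside 3532. In the other settings the genes called lower in these 4 comparisons numbered 755 to 1159, 56 to 887, 3013 to 3699 and 2921 to 3796. The covariate for heart and brain transcripts left 1 member called for HDAC1 with TGFB1, and the DESeq2 test called 1 in the interaction; the cause was not tested. With the replicate block the counts were 16, 6, 28, 24 and 0. Over all genes, 928, 553, 3495, 3427 and 78 were called lower in that fit. Same-numbered libraries of different groups correlated between -0.087 and 0.12. Whether the replicate numbers pair the libraries cannot be decided from this, since differently numbered libraries were not compared. Of the members called, 24 of 28 and 21 of 24 under TGFB1 and 9 of 18 and 1 of 6 under HDAC1 were called whichever library was left out. The like share over all genes was not counted. In the 250 bases before the start alone, 8 members held CACGTG and 3 held TCACGTGA. Ctsk, with 5 to 34 counts per library, has too few counts for a change the size of most members' to be seen.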
